A study of Mus musculus with 19 samples.

Results

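The mature miRNAs of 5 neighbouring genes, miR-376a, miR-376b, miR-376c, miR-300 and miR-381, were followed in 3 tissues of high-active and low-active mice. They were taken from the array by name (mmu-miR-376a-3p, mmu-miR-376a-5p, mmu-miR-376b-3p, mmu-miR-376b-5p, mmu-miR-376c-3p, mmu-miR-376c-5p, mmu-miR-300-3p, mmu-miR-300-5p, mmu-miR-381-3p and mmu-miR-381-5p, written without mmu from here on), which gave 10 of the 1136 miRNAs on the array. They were chosen by measured values, since miR-376c-3p separated the strains in the nucleus accumbens and miR-300-3p and miR-381-3p did so in the soleus. The strain values of those tissues are therefore a description with no test. Strain in the EDL and differences between tissues were tested, the latter with arrays that had also helped to choose the members.

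Inbred C57L/J mice served as the high-active and inbred C3H/HeJ mice as the low-active strain. All were males of 9 weeks that had been housed for 1 week with a locked running wheel, and this held for both strains. Single-dye Agilent arrays measured whole tissue of the nucleus accumbens (NA, 4 high-active and 3 low-active arrays), soleus (4 and 2) and extensor digitorum longus (EDL, 2 and 4), 1 array per mouse and tissue. Each strain is 1 inbred genotype, so strain differences cannot be told apart from anything else in which the 2 strains differ. In whole tissue, fewer cells that make a miRNA and less of it per cell cannot be told apart.

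A miRNA gene is transcribed as part of a long RNA from which a hairpin is cut, and either arm of the hairpin, 5p or 3p, can become the mature miRNA. The seed near the 5′ end of the mature miRNA pairs with target mRNAs. These 5 genes belong to the imprinted Dlk1-Dio3 region of distal chromosome 12, whose miRNAs are read from the maternal chromosome and are known for their abundance in brain, where the transcription factor Mef2 drives the cluster in neurons. Primary miR-376 transcripts are also known substrates of A-to-I editing in brain. The nucleus accumbens is a forebrain region of reward, the soleus a slow postural muscle and the EDL a fast muscle of the lower leg.

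In RefSeq (build GRCm38.p6) the 5 hairpins lie on the plus strand of chromosome 12 in the order Mir376c, Mir376b, Mir376a, Mir300 and Mir381, within 4179 bases. Mir376c is at chr12:109722718-109722803, Mir300 at chr12:109724313-109724391 and Mir381 at chr12:109726822-109726896. Mature sequences of 9 of the 10 were found there. That of miR-376c-3p was not, so its likeness to the other members was not compared. Among the 9, the 6 shown are those whose likeness matters for telling neighbours apart on an array, written 5′ to 3′ with the seed, bases 2 to 8, in capitals.
miR-300-3p: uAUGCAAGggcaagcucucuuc
miR-381-3p: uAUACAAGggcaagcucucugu
miR-376a-3p: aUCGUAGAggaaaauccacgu
miR-376b-3p: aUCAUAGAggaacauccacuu
miR-376b-5p: gUGGAUAUuccuucuaugguua
miR-376c-5p: gUGGAUAUuccuucuauguuua

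Counted from the 5′ end, miR-300-3p and miR-381-3p differ by G4A, U21G and C22U and are the same at the other 19 of 22 bases. miR-376a-3p and miR-376b-3p differ by G4A, A13C and G20U and share 18 of 21. In both pairs 1 difference lies in the seed. miR-376b-5p and miR-376c-5p differ only by G19U, and among the 9 members with a sequence they alone share a seed. How much each probe binds the neighbour's miRNA was not tested. miR-376b-5p was detected on 17 of 19 arrays and miR-376c-5p on 0 of 19.

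Signals are spot intensities, averaged over the brightest probe of each miRNA, scaled to the 75th percentile of the array, set to at least a floor near the lowest detected signal, and taken to log2. A miRNA counted as detected on an array when at least 1 of its probes had most spots well above background. Values are given on a tissue scale for strains within a tissue and on an all-array scale between tissues, with floors of 4.60 (NA and soleus), 4.22 (EDL) and 4.41 (all arrays). The 75th percentile lay between 480 intensity units (EDL, low-active mouse 195) and 1357 (soleus, low-active mouse 195), and both low-active soleus arrays, at 1206 and 1357, were brighter than the 4 high-active ones (588 to 1001). Of the 4 brain markers, all detected on all 7 NA arrays, miR-124-3p and miR-137-3p were detected on 0 of 12 muscle arrays, miR-9-5p on 1 and miR-128-3p on 12 (9.72 to 11.37, against 14.64 to 15.50 in the NA). The muscle miR-1a-3p was above a log2 signal of 16 on every muscle array (17.00 to 17.75), and the slow-fibre miR-208b-3p was detected on 6 of 6 soleus and 0 of 6 EDL arrays, so the labelled tissues carried their markers. In the NA the summed muscle markers lay at 7.95 to 10.35, highest on the array of low-active mouse 197, against 18.13 to 18.81 in muscle.

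All 8 members that were detected anywhere were brighter in the NA than in either muscle. miR-376a-3p and miR-376b-3p were nearly absent from muscle signals, while miR-300-3p, miR-381-3p and miR-376c-3p were measured in all 3 tissues. miR-300-3p was detected on 12 of 12 muscle arrays, miR-376c-3p and miR-381-3p on 11 of 12 and miR-376b-5p on 10 of 12. miR-376a-3p was detected on 4, miR-300-5p on 3, miR-376b-3p on 1 and miR-376a-5p on 0 of them. miR-376c-5p and miR-381-5p, the remaining arms, were detected on no array, so nothing can be said of their levels.

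**Figure D1:**
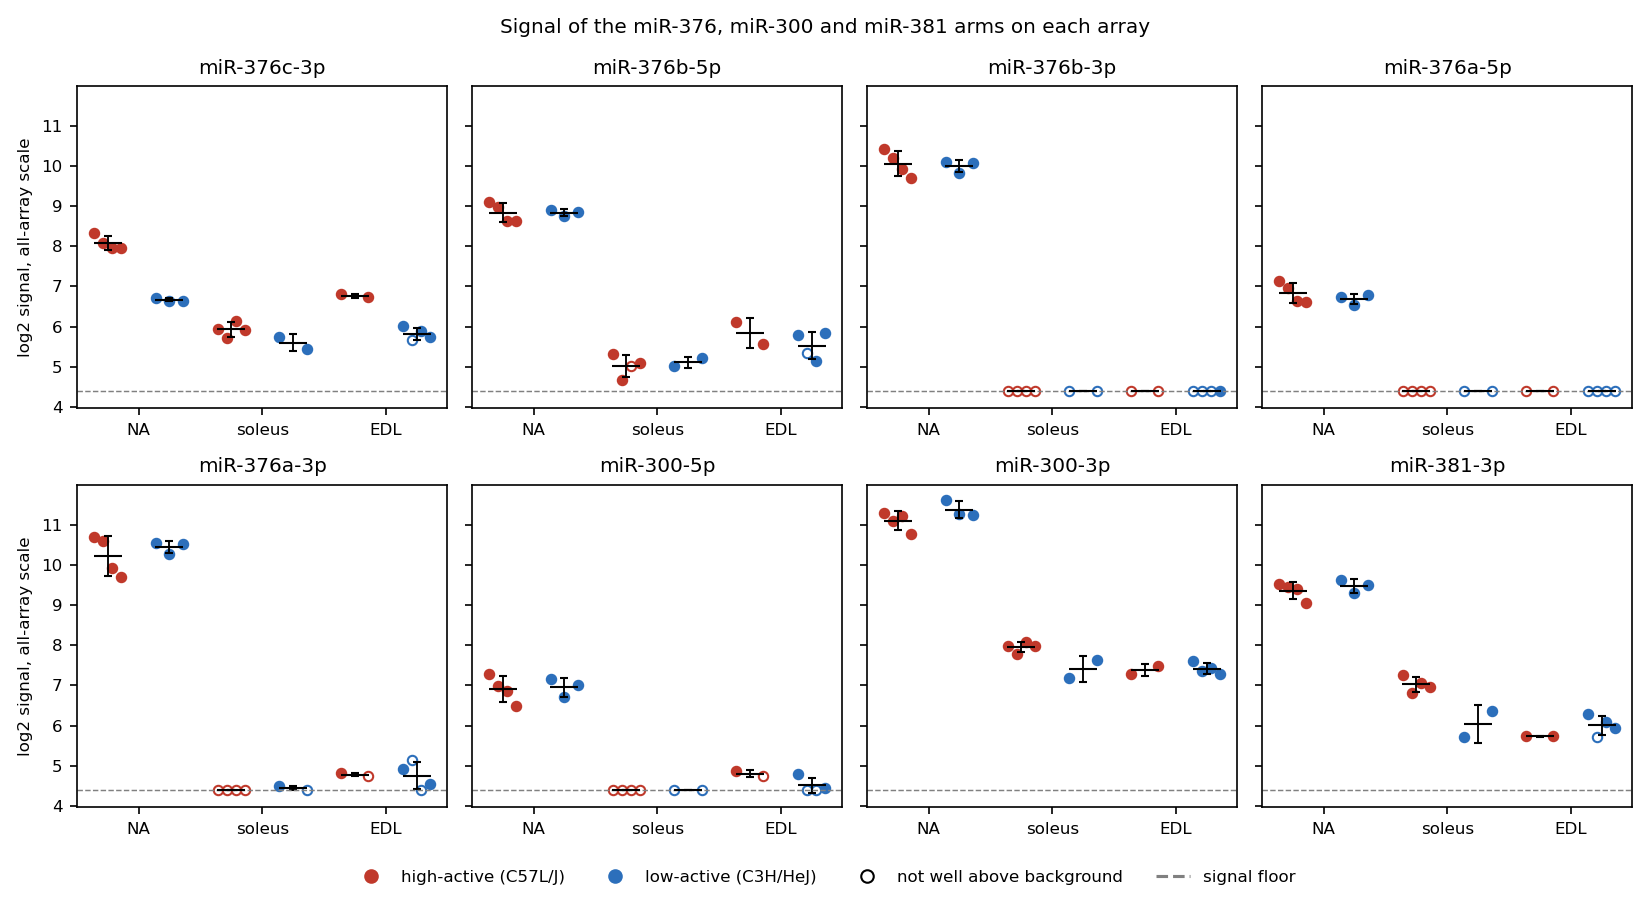
Log2 signal (all-array scale) of 8 arms on each array, by tissue and strain. Points are arrays (n = 2 to 4 per group), open where no probe was well above background, black bars show each group's mean and SD, and a dashed line marks the floor of 4.41. NA arrays lie above every muscle array in 7 of the 8 panels, and in that of miR-376c-3p the low-active NA (6.64 to 6.72) lies beside the high-active EDL (6.73 and 6.80).

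The first question between tissues was how far the brain signal exceeded that of each muscle. The 3p arms of miR-376a and miR-376b had the widest gaps. miR-376b-3p had log2 signals of 9.69 to 10.41 (median 10.08) on the 7 NA arrays and stood at the floor of 4.41 on all 12 muscle arrays. It was at least 46.1-fold higher in the NA than in the soleus. In the EDL 1 of 6 arrays detected it. It passed the detection filter through the NA arrays and so had to differ, and no test is given for it.

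miR-376a-3p lay at 9.69 to 10.70 (median 10.51) in the NA, at 4.41 to 4.49 in the soleus and at 4.41 to 5.15 in the EDL, with 1 of 6 soleus and 3 of 6 EDL arrays detecting it. The groups were far apart, with a difference of 5.91 from the soleus and 5.56 from the EDL (standard error 0.164, adjusted p = 2.18e-14 from limma). Its soleus values were the floor or next to it, so no test against the soleus is given. Its 5p partner miR-376a-5p, at 6.55 to 7.13 in the NA and at the floor on all muscle arrays, was at least 4.80-fold higher in the NA than in the soleus and at least 4.45-fold higher than in the EDL, and it too passed the filter through the NA arrays alone. miR-376b-5p was measured in muscle as well, so its difference of 3.77 from the soleus (13.6-fold, adjusted p = 8.38e-13) and of 3.15 from the EDL (8.87-fold, adjusted p = 9.12e-12) is between measured levels on most arrays. The floor hides how far the dim arms lie below it in muscle, so the differences of 2 arms of a hairpin are not set against each other.

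miR-300-3p was at 10.77 to 11.62 (median 11.23) in the NA, 7.19 to 8.07 in the soleus and 7.28 to 7.61 in the EDL. It was 11.7-fold higher in the NA than in the soleus (log2 difference 3.55, standard error 0.112, adjusted p = 4.99e-14 from limma) and 14.3-fold higher than in the EDL (3.83, adjusted p = 2.10e-14). miR-300-5p was at 6.50 to 7.28 in the NA and at the floor on all soleus arrays. It was at least 5.37-fold higher in the NA than in the soleus, and no test against the floor is given. Its difference from the EDL, where 3 of 6 arrays detected it, was 2.27 (adjusted p = 2.59e-11 from limma). miR-381-3p, the near copy of miR-300-3p, was at 9.04 to 9.63 in the NA, with a difference of 2.88 from the soleus (7.35-fold, standard error 0.131, adjusted p = 5.94e-12) and 3.54 from the EDL (11.6-fold, adjusted p = 4.23e-13). Both miRNAs were well above background on most muscle arrays, as was 1 of the 4 brain markers, miR-128-3p, while miR-124-3p and miR-137-3p were not detected there. The strain gap in the soleus chose miR-300-3p and miR-381-3p, so their differences from the soleus are a description. Their adjusted p against the soleus supports nothing.

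miR-376c-3p had the smallest excess in brain. Its signals were 6.64 to 8.33 in the NA, 5.45 to 6.15 in the soleus and 5.66 to 6.80 in the EDL, so that NA and EDL arrays overlapped. It was 3.05-fold higher in the NA than in the soleus (log2 difference 1.61, standard error 0.0913, adjusted p = 1.08e-10 from limma) and 2.12-fold higher than in the EDL (1.08, adjusted p = 1.98e-08). Quantile normalization left 0.22 of the latter (adjusted p = 0.207). High-active arrays gave 2.15 against the soleus and 1.32 against the EDL, and low-active arrays 1.07 and 0.85. The strain gap in the NA chose this miRNA, so all its values between the NA and the muscles are a description.

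Over the whole array, 47.3% of 484 miRNAs were higher in the NA than in the soleus (229) and 47.1% higher than in the EDL (228). All 8 members tested were among them in both comparisons, but miR-376a-5p and miR-376b-3p, detected on fewer than 2 muscle arrays, entered the test through the NA and then had to differ, so this count adds nothing to the values above. Of all miRNAs 31.6% were lower in the NA than in the soleus (153) and 28.7% lower than in the EDL (139). The 2 comparisons share their NA arrays.

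**Figure D2:**
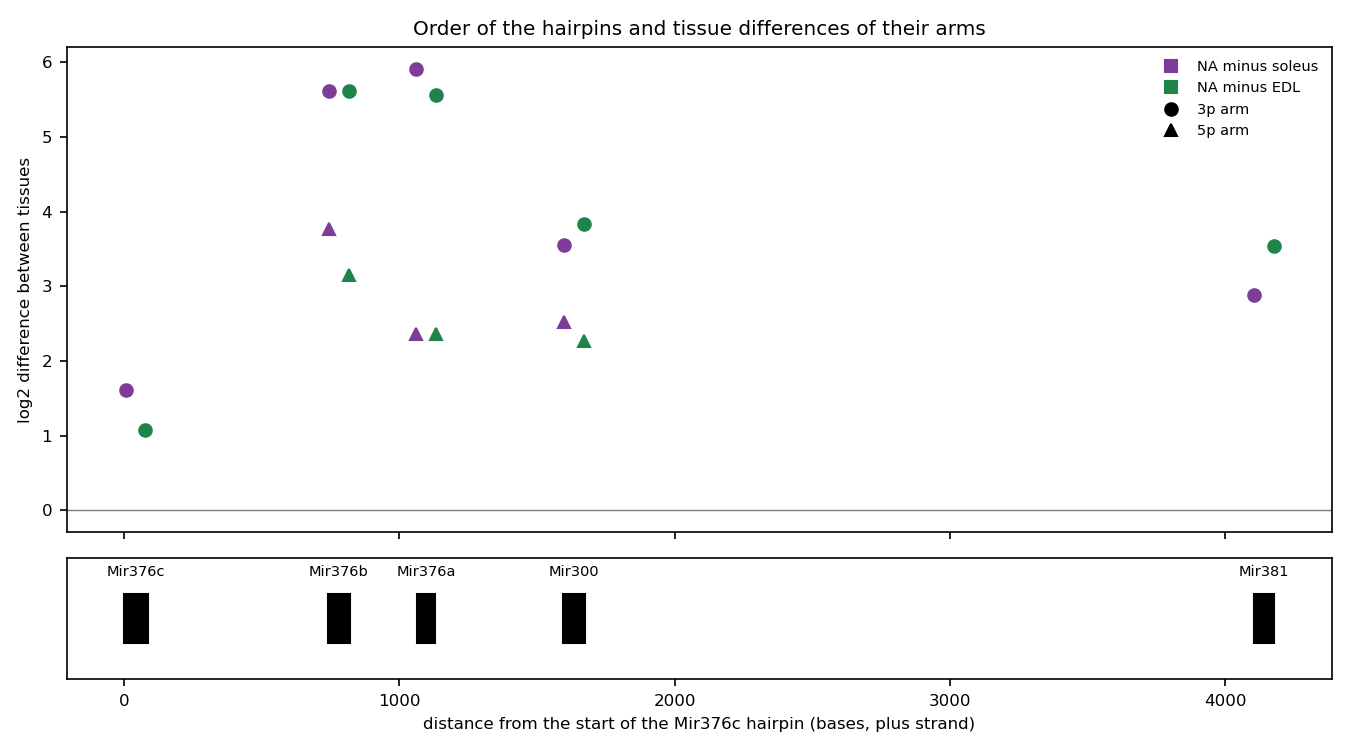
Upper panel: log2 difference (all-array scale) of the NA from the soleus and from the EDL for each arm tested, placed at its hairpin. Lower panel: the 5 hairpins to scale, by distance in bases from the start of Mir376c. The 3p arms of Mir376b and Mir376a stand at 5.56 to 5.91 and that of Mir376c, at the left end, at 1.08 and 1.61.

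Soleus and EDL were compared next, with soleus arrays that had also helped to choose the members. On the all-array scale miR-381-3p was higher in the soleus and miR-376c-3p and miR-376b-5p were higher in the EDL. Of all miRNAs 7.02% were higher in the soleus (34 of 484) and 9.09% lower (44), and of the 8 members 1 was higher and 2 were lower. miR-381-3p was 1.58-fold higher in the soleus (log2 difference 0.66, standard error 0.139, adjusted p = 0.00312 from limma), from 5.71 to 7.26 in the soleus and 5.71 to 6.28 in the EDL. All 4 high-active soleus arrays (6.82 to 7.26) and that of low-active mouse 195 (6.37) lay above the EDL range, with a difference of 1.29 in high-active and 0.03 in low-active mice. The strain gap in the soleus chose miR-381-3p and miR-300-3p, so their values between the muscles are a description. The adjusted p of either supports nothing.

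miR-376c-3p was 1.44-fold lower in the soleus (log2 difference -0.53, standard error 0.0969, adjusted p = 0.00102 from limma), at -0.83 in high-active and -0.23 in low-active mice. miR-376b-5p was 1.53-fold lower (-0.62, standard error 0.157, adjusted p = 0.0118), at 4.67 to 5.32 in the soleus and 5.15 to 6.11 in the EDL. miR-300-3p had a difference of 0.29 (95% interval 0.03 to 0.54, adjusted p = 0.134), at 0.57 in high-active and 0.00 in low-active mice. miR-300-5p, detected on 0 of 6 soleus and 3 of 6 EDL arrays, had a difference of -0.25 (adjusted p = 0.21 from limma), which depended on the processing, with -0.19 to -2.70 over the alternatives (adjusted p = 0.00023 to 0.719) and 5 of 12 of them passing. miR-376a-3p differed by -0.34 (adjusted p = 0.246). The adjusted p of miR-376b-5p was 0.0535 without the soleus array of low-active mouse 194 and 0.0927 without the EDL array of high-active mouse 225, that of miR-381-3p was 0.0546 with scaling over all probes, and without scaling or with another background correction (normexp) no member passed. The slow-fibre miRNAs miR-208b-3p and miR-499-5p marked the same arrays, with a summed log2 signal of 10.16 to 11.21 in the soleus and 5.74 to 6.74 in the EDL, and their part in these differences was not tested.

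On the all-array scale the order of the 6 groups differed between the members. For miR-376c-3p the high-active NA came first (8.08 ± 0.18, SD, n = 4), then the high-active EDL (6.77 ± 0.05, n = 2) and the low-active NA (6.67 ± 0.04, n = 3). The last 2 were 0.01 apart at their nearest arrays (6.73 and 6.72). The high-active soleus (5.93 ± 0.18, n = 4), low-active EDL (5.82 ± 0.15, n = 4) and low-active soleus (5.60 ± 0.21, n = 2) overlapped. For miR-381-3p the 2 NA groups overlapped at 9.47 and 9.36, the high-active soleus followed at 7.03 ± 0.18, and the low-active soleus (6.04 ± 0.47), low-active EDL (6.01 ± 0.24) and high-active EDL (5.74 ± 0.01) overlapped. miR-300-3p had the same order of tissues and strains in its upper part, with 11.37 and 11.10 in the NA, 7.95 ± 0.13 in the high-active soleus and 7.38 to 7.42 in the other 3 groups.

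Within the NA, on the tissue scale, miR-376c-3p stood apart from its neighbours. It read 8.45, 8.23, 8.28 and 8.23 on the arrays of high-active mice 223, 224, 225 and 227, and 6.84, 6.92 and 6.80 on those of low-active mice 194, 195 and 197. All high-active arrays were above all low-active ones, by 1.44 in the mean (2.72-fold). Slides with arrays of both strains gave 1.35 and 1.50. Of its 4 probes, the 3 detected on all 7 arrays gave 1.44 to 1.87, and the fourth was detected on 4 of 4 high-active and 0 of 3 low-active arrays.

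None of the other 7 members measured in the NA separated the strains. miR-376b-5p, whose hairpin comes next on the chromosome, read 9.22, 9.13, 8.94 and 8.92 in high-active and 9.03, 9.01 and 9.01 in low-active mice, a difference of 0.03. miR-376b-3p differed by 0.08, miR-376a-5p by 0.19 and miR-376a-3p by -0.19. miR-300-3p differed by -0.24 with overlap at its brightest probe (its other probe gave -0.22 without overlap), miR-300-5p by -0.01 and miR-381-3p by -0.08. miR-376a-3p was the most variable of them, with 10.81 and 10.74 on the arrays of high-active mice 223 and 224 against 10.23 and 9.98 on those of mice 225 and 227, a spread wider than its strain difference. Groups that did not overlap were found for 18.4% of the 391 miRNAs tested (72), and 6.91% passed the test (27), a share from which nothing is read here because this contrast chose the members. Summed brain markers lay at 16.31 to 16.67 in high-active and 16.07 to 16.54 in low-active arrays on the all-array scale. Epithelial ones lay at 7.31 to 13.73 and 6.68 to 11.83, and red cell ones at 10.81 to 12.20 and 11.85 to 13.61. Leukocyte ones lay at 9.77 to 10.14 and 9.73 to 9.90, and vessel ones at 11.45 to 11.87 and 11.56 to 11.63. All these ranges overlapped, but the epithelial miR-200a-3p and miR-200b-3p were each detected on 4 of 4 high-active and 1 of 3 low-active arrays. The part of these markers in the strain values was not tested.

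**Figure D3:**
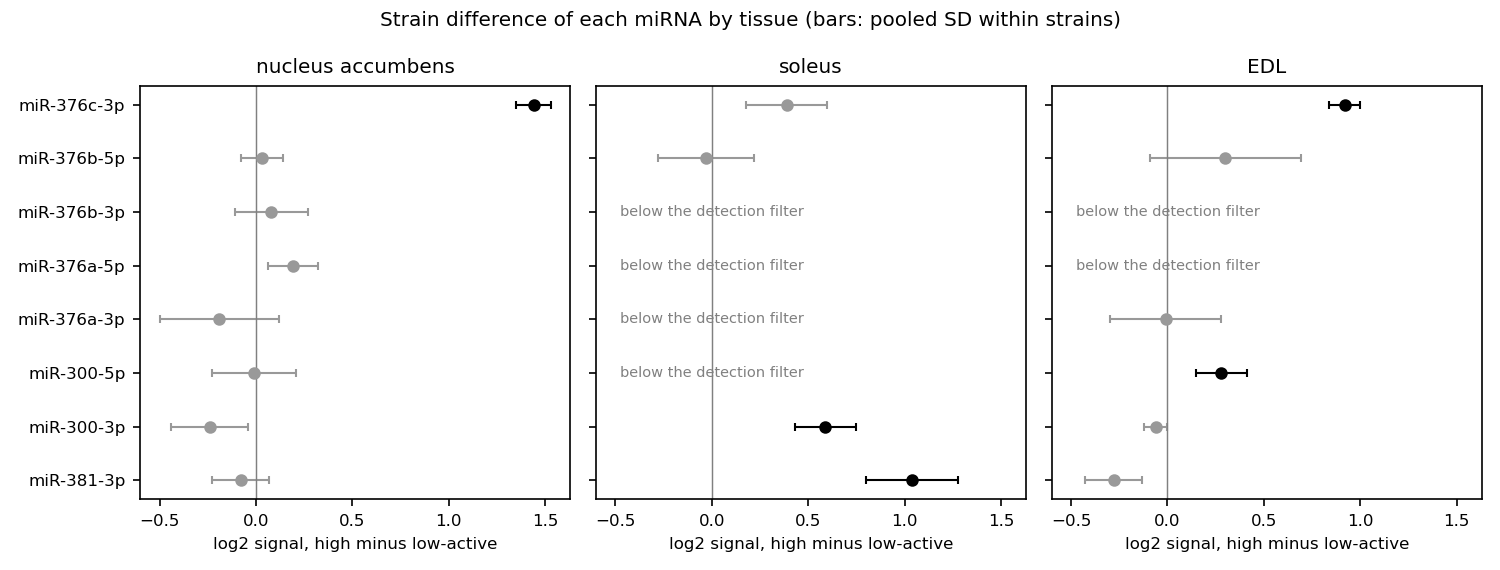
Difference in mean log2 signal (tissue scale) between high-active and low-active mice for each arm and tissue, with bars of 1 pooled SD within strains. Black marks arms whose strains did not overlap and grey those that did. miR-376c-3p is at 1.44, 0.39 and 0.92 in the NA, soleus and EDL, while miR-300-3p and miR-381-3p lie to the right of 0 in the soleus alone.

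The scanner software also writes a total per miRNA, and for miR-376c-3p that total ran against its own probes. On the 4 high-active NA arrays it equalled the sum of the miRNA's probe totals, 119 to 227 intensity units. On the 3 low-active NA arrays the probes summed to 28.7 to 44.1, but the software total was 174.7 to 295.7. On each of these 3 arrays the software total equalled the total of miR-376b-5p plus those of some of miR-376c-3p's own probes, to within 0.01 units. On the array of low-active mouse 197, for example, the software gave 295.723, of which 253.658 was the total of miR-376b-5p.

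The same held for every member whose software total differed by over 1% from its probes. Of 122 detected totals, 56 differed, and 56 of 56 equalled the software total of the nearest detected miRNA before it in alphabetical order plus totals of its own probes. miR-376c-3p carried miR-376b-5p on 14 of 19 arrays, miR-381-3p carried miR-379-5p on 11 muscle arrays (5 soleus, 6 EDL), miR-376a-5p carried miR-376a-3p on all 7 NA arrays and miR-300-5p carried miR-300-3p on 6 muscle arrays (1 soleus, 5 EDL). miR-300-3p carried none on its 19 arrays. The software total of miR-376b-5p itself carried that of another miRNA on 10 arrays, all muscle, so there the excess of miR-376c-3p was not miR-376b-5p signal alone. With these totals the NA strain difference of miR-376c-3p was -1.04 in place of 1.44, and with normexp background correction of the spots it was 0.86.

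**Figure D4:**
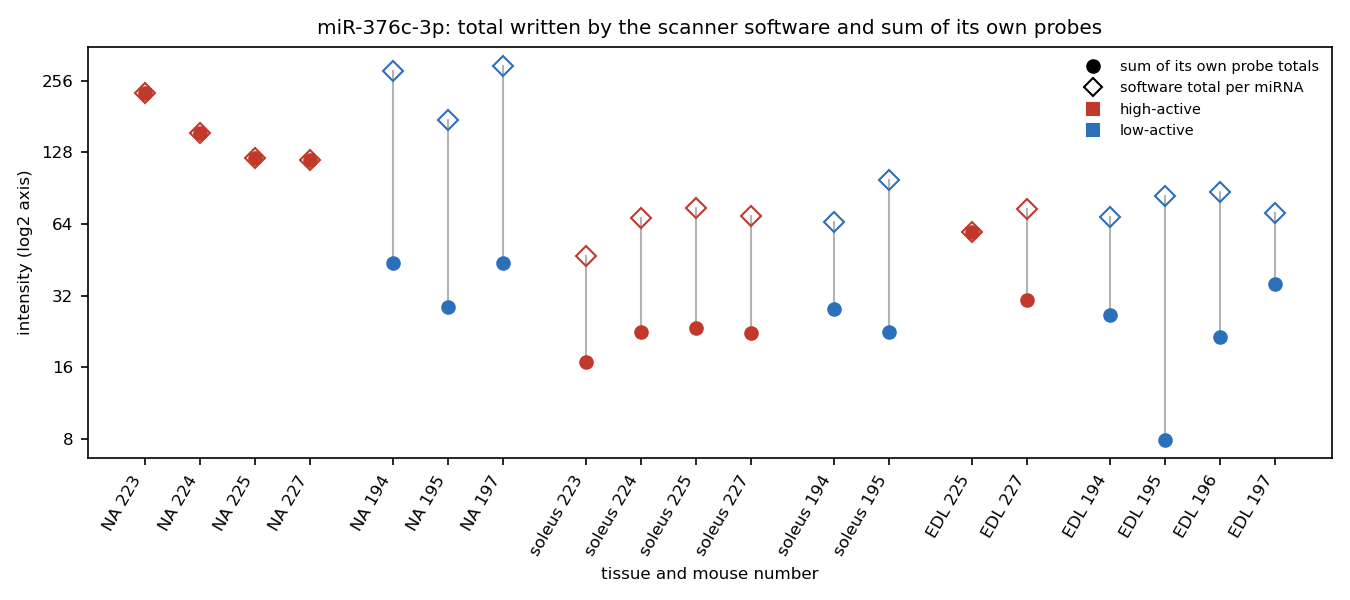
Intensity of miR-376c-3p on each array (log2 axis), as the sum of its own probe totals (filled circles) and as the software total (open diamonds), with a grey line between them. On 5 arrays, all high-active, both coincide, and on the other 14 the diamond is higher by the software total of miR-376b-5p less probes left out of the sum. On 10 of these, all muscle arrays, that total itself held the total of another miRNA.

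In the soleus, on the tissue scale, miR-381-3p and miR-300-3p were the members whose strains did not overlap. miR-381-3p read 7.24, 6.77, 6.96 and 7.03 in high-active mice 223, 224, 225 and 227 and 5.70 and 6.20 in low-active mice 194 and 195. The difference was 1.04 (2.06-fold), at 0.75 and 1.20 on the slides with both strains, and it was read from the only 1 of its 2 probes that was detected in this tissue. miR-300-3p read 7.97, 7.72, 7.96 and 8.04 against 7.19 and 7.47, a difference of 0.59 (1.51-fold), with 0.48 and 0.69 within slides. Its second probe, also detected on all 6 arrays, gave 0.15 with overlapping strains.

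The strains of miR-376c-3p overlapped in the soleus, with 5.91, 5.68, 6.04 and 5.97 in high-active and 5.74 and 5.28 in low-active mice. Its difference was 0.39, in the direction of the NA, at 0.76 and 0.09 on the slides with both strains. miR-376b-5p differed by -0.03. The remaining members were below the detection filter. Strains did not overlap for 29.5% of the 342 miRNAs tested in the soleus (101), and 1.17% passed the test (4), from which nothing is read here either. Summed slow-fibre markers were higher on every high-active soleus array (10.84 to 11.21) than on the low-active ones (10.16 and 10.63). Leukocyte ones were higher in sum (10.64 to 10.91 against 10.35 and 10.53), but only miR-150-5p kept the strains apart, while miR-142-3p and miR-223-3p overlapped. Skin and epithelial ones were lower in sum (6.43 to 7.18 against 7.23 and 7.53). Of these, miR-200a-3p and miR-200b-3p were detected on no soleus array, and only miR-203-3p kept the strains apart. The low-active arrays were also the brighter ones, and the part of these markers and of brightness in the differences was not tested. Without scaling the difference of miR-300-3p was -0.12 and that of miR-381-3p 0.33, and with software totals they were 0.38 and 0.21.

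miR-376a-3p in the soleus shows what a value near background can become. Its software total was 0.1, the value given to any undetected miRNA, on all 4 high-active arrays, and 15.8 and 57.9 on the low-active ones. The larger of these held the total of miR-374c-5p, and its own probes summed to 12.9. In the deposited table it stood at -0.47 to 0.21 in high-active and at 5.72 and 6.50 in low-active mice, a difference of -6.30 on its log2 scale. By spots it was detected on 1 of 2 low-active and 0 of 4 high-active arrays and lay at the tissue-scale floor on all 6, which leaves no fold to give.

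The EDL arrays had no part in the choice, so strains were tested there. The mice were not new, since all of them except low-active mouse 196 also gave NA arrays. No member passed in limma (0 of 6 tested), where 0.303% of 330 miRNAs did (1), and at an unadjusted p under 0.05 1 of the 6 did, against 7.27% of all tested (24). That member was miR-376c-3p, with 6.64 and 6.50 in high-active mice 225 and 227 and 5.69, 5.54, 5.63 and 5.70 in low-active mice 194, 195, 196 and 197. Strains did not overlap, and high-active mice were higher, as in the NA. The difference was 0.92 (1.90-fold, standard error 0.180, 95% interval 0.50 to 1.35, adjusted p = 0.138 from limma). Both slides that carried arrays of each strain gave similar values (0.95 and 0.94), and 3 of its 4 probes gave 0.92 to 1.04. None of the probes was detected on the dim array of low-active mouse 195, the low-active array behind the 0.95.

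miR-300-3p read 7.12 and 7.24 in high-active and 7.20 to 7.30 in low-active mice, a difference of -0.06 (95% interval -0.47 to 0.36, adjusted p = 0.943 from limma). miR-381-3p read 5.59 and 5.50 against 5.59 to 5.96, a difference of -0.28 (95% interval -0.75 to 0.19, adjusted p = 0.744). Neither passed. miR-376b-5p differed by 0.30 (adjusted p = 0.833), miR-300-5p by 0.28 (adjusted p = 0.744) and miR-376a-3p by -0.01 (adjusted p = 0.983), the last 2 close to the floor of 4.22. Strains did not overlap for miR-376c-3p and miR-300-5p, as for 19.7% of all miRNAs tested (65). Summed leukocyte markers were also higher in high-active EDL (10.65 and 10.68 against 10.13 to 10.49), although miR-142-3p overlapped. Skin and epithelial ones were lower (6.41 on both against 6.91 to 8.21). The 6.41 is the sum of 4 floor values, since none of these markers was detected on the high-active arrays. miR-200a-3p and miR-200b-3p were detected on no EDL array, so the gap came from miR-203-3p and miR-205-5p. Vessel ones were 13.32 and 13.34 against 12.82 to 13.26, and the part of these markers in the strain values was not tested.

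The array held 95 other miRNAs of the Dlk1-Dio3 region, of which 50 were tested between tissues. Of these, 22 were detected on fewer than 2 muscle arrays, needed the NA arrays to enter the test and had to be higher there, so the counts and medians describe the list and support nothing. In the NA 44 were higher and 2 lower than in the soleus, with a median difference of 2.79 against 0.20 over all miRNAs (229 higher and 153 lower of 484), and 44 were higher and 3 lower than in the EDL, with a median of 2.48 against 0.20 over all (228 higher and 139 lower). With other scalings of the arrays the list's medians were 1.77 to 2.91 and those of all miRNAs -0.12 to 0.37. miR-495-3p, of the same cluster, was highest, with differences of 5.66 from the soleus and 4.86 from the EDL, near those of miR-376a-3p, followed by miR-410-3p (5.32 and 4.35). miR-369-5p differed by 4.55 from the soleus, and miR-433-3p was at least 15.9-fold higher than in the EDL. At the other end were miR-3072-5p (-1.56 and -1.07) and miR-299b-5p (-0.86 and -1.48), with miR-540-3p at 0.11 against the soleus and miR-539-5p at -0.51 against the EDL.

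Between the muscles, 15 of these 50 were lower and 1 higher in the soleus, against 9.09% lower (44) and 7.02% higher (34) of all 484. The medians were -0.03 in the list and 0.00 over all. The 22 detected on fewer than 2 muscle arrays could differ little between the muscles, which draws the list's median towards 0. Without scaling 1 of the 50 was lower and 1 higher. miR-434-5p (-1.18), miR-434-3p (-1.04) and miR-127-3p (-1.01) were lowest in the soleus, and miR-379-5p (-0.40) and miR-382-3p (-0.26) were lower by the least. The exception that was higher, miR-487b-3p (0.49, adjusted p = 0.0125 from limma), moved in the direction of miR-381-3p and not of miR-376c-3p. Between strains in the EDL 0 of 27 passed in limma, against 1 of 330 over all miRNAs. At an unadjusted p under 0.05 in limma 2 of 27 did, near the 7.27% of all tested (24). The list's median was 0.19 against 0.02 over all miRNAs.

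Profiles over the 19 arrays were compared by the root mean square difference of centred log2 signals, among 297 other miRNAs detected on at least 10 arrays. Nearest to miR-300-3p were miR-487b-3p of the same region (0.18), miR-221-3p (0.31) and miR-381-3p (0.35). Nearest to miR-381-3p were miR-300-3p (0.35), miR-487b-3p (0.39) and miR-139-5p (0.40). miR-376c-3p had no such near neighbour from its region, and its closest profiles were those of miR-186-5p (0.43), let-7a-1-3p (0.47) and miR-29c-3p (0.47). These distances are descriptions over arrays that share tissues, and the values that chose the members are among them.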

How the data were processed

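Per the file headers, the deposited scanner files hold background-subtracted intensity values per spot and totals per miRNA from Feature Extraction 10.7.1.1, with no normalization between arrays. The authors kept arrays with even signal, and the deposited table of the series holds their log2 values after a percentile shift, which were found centred to a median of 0 per entry within each tissue. Its medians per array lie between -0.40 and 0.75, its percentile is unknown, and it was used as an alternative. The number of arrays limits the precision.

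From the spots, outliers (4.04% to 7.03% per array) and controls were left out. Probes were scaled to the 75th percentile over those detected on all arrays of the set, and a miRNA took its brightest probe. miRNAs detected on at least 3 (NA) or 2 arrays (soleus, EDL, all tissues) were tested with limma 3.58.1 in R 4.3.3 with Benjamini-Hochberg correction over all of them, at an adjusted p under 0.05. Strains were fitted within a tissue, and tissues as the mean over strains in a model of 6 group means. For a bound ("at least"), each dim array contributed its lowest detected signal or the miRNA's own signal if that was larger. The fits were also run on simulated data with independent noise, every miRNA detected and no floor, unlike the arrays, and nothing is read from that run. The R packages data.table (version 1.17.8) and jsonlite 2.0.0 read the input, and matplotlib 3.10.9 and pandas 2.3.3 in Python 3.11.15 drew the figures.

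The members and lists were chosen with earlier results of these data known. The text names every member, tissue markers, Dlk1-Dio3 miRNAs with the 3 highest and 3 lowest differences past the test, and the 3 nearest profiles. miR-374c-5p was named after its values were seen. Mouse numbers in the labels were taken to mark the animal, which pairs tissues. Deviations of the same mouse from its group means correlated at -0.50 to 0.54 over 15 pairs.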

Additional observations from a re-analysis of the deposited data

How the results depend on the processing

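The NA strain difference of miR-376c-3p, 1.44, was 1.66 with scaling over all probes, 1.82 without scaling, 1.53 with quantile normalization, 1.57 with summed probes, 1.57 in the deposited table and 0.86 with normexp on the median signal, which was chosen after seeing the data because the mean signal named in the plan is not a column used here. It turned to -1.04 with the software total per miRNA, which by its construction adds miR-376b-5p on the low-active arrays, and lay at 1.41 to 1.51 with any 1 array left out. Without a filter on detection, miRNAs at the floor on every array were still left out. In the soleus miR-300-3p, 0.59, was 0.84 with scaling over all probes, -0.12 without scaling and 0.38 with software totals, and 0.45 to 0.73 with 1 array left out. miR-381-3p, 1.04, was 1.30, 0.33 and 0.21 under the same 3 settings, 0.77 with normexp and 0.79 to 1.29 with 1 array left out, its highest value coming without low-active mouse 195 and its lowest without low-active mouse 194. In the EDL 0 members passed under every alternative run, and the adjusted p of miR-376c-3p ran from 0.0578 (no filter on detection) to 0.996 (without high-active mouse 225), its difference turning to -0.40 with software totals only. Where 1 array was left in a group, it was assumed to vary like the other group.

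All 8 members passed as higher in the NA than in the soleus under every alternative, and 7 or 8 than in the EDL. In the main setting 47.3% and 47.1% of all miRNAs did. miR-376a-5p and miR-376b-3p entered through the NA and had to differ, so these counts add nothing. Against the EDL miR-300-5p turned to -0.10 with software totals, and miR-376c-3p fell to 0.22 with quantile normalization (adjusted p = 0.207 from limma). Between the muscles 3 members passed, among them miR-381-3p, which its soleus values had chosen. Without scaling or with normexp 0 passed. With software totals 1 passed and miR-381-3p turned to -0.28. With quantile normalization, summed probes or a floor of 1 unit 4 passed. miR-300-5p, at -0.25 (adjusted p = 0.21), passed with scaling over all probes (-0.65), quantile normalization (-0.61), summed probes (-0.96), software totals (-2.70), a floor of 1 unit (-0.98) and without low-active EDL mouse 195 (-0.38). With 1 array left out 2 to 4 passed. The mouse as a random replicate block (correlation 0.093) gave 8, 8 and 3 members and changed none of the 27 calls. No paired analysis was possible for strains because no mouse number is shared between them. The causes of the other changes were not tested.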
